A study of Mus musculus with 6 samples.

Results

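Interleukin receptor genes were taken here as every probe on the array whose gene name begins with Il, a number and the letter r, without Il7r and Il2rg. The rule found 71 probes of 41 genes, among 28307 genes or unnamed sequences on the array. Most encode the chain of a receptor that recognises 1 cytokine or a few. The rule also takes in the IL-1 receptor antagonist Il1rn, a secreted ligand, and the accessory-like genes Il1rapl1 and Il1rapl2. The set also holds old names: Il8ra and Il8rb are the chemokine receptors now called Cxcr1 and Cxcr2, and Il28ra is now Ifnlr1.

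The cells were mouse pre-pro-B cells of genotype Ebf1-/-, labelled "Ebf -/-" in the genotype field, kept on a layer of OP9 stroma in medium with 10 ng/ml each of Flt3 ligand, stem cell factor and interleukin 7. Of the 6 samples, 3 received the retrovirus pMYs-Ebf1-IRES-EGFP (Ebf1 virus; the titles name the insert Ebf1beta), and 3 received pMYs-IRES-EGFP, which carries EGFP alone (control virus). Both groups were of that genotype, were cultured for 24 h after infection and were sorted for EGFP. Every result is therefore a difference 24 h after infection with a virus that supplies Ebf1, in cells that shared their culture with a feeder layer. The labels do not say whether the 3 samples of a group came from separate cultures or animals, so p-values measure only the spread between these samples.

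Interleukin receptors work as assemblies: a chain that binds the cytokine joins a signalling chain that several receptors share. The common gamma chain serves the receptors for interleukins 2, 4, 7, 9, 15 and 21, gp130 serves those for interleukins 6 and 11, and the IL-1 family and IL-17 family use adaptor proteins of their own. Early lymphoid progenitors still carry several of these receptors, and the interleukin 7 receptor is the one on which mouse B cell precursors depend. Ebf1 is the transcription factor that commits such progenitors to the B lineage.

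Levels are given as log2 of the spot signal relative to the array's 75th percentile, so that a value of 0 is the signal of a probe at that percentile, and a change is Ebf1 virus minus control virus on this log2 scale. A probe was tested where the scanner software called it well above background on all 3 arrays of at least 1 group, and it was called higher or lower where limma's adjusted p over all tested probes lay below 0.05. The 75th percentile of the signal was 316 to 364 on the Ebf1 virus arrays and 240 to 366 on the control virus arrays. The share of probes above background was 50.3 to 59.8% with the Ebf1 virus and 46.3 to 50.2% with the control virus, and no spot was saturated. Arrays of 1 group correlated at 0.984 or higher over tested probes, and the lowest correlation across groups was 0.938. One Ebf1 probe was above background on all 6 arrays and differed by -0.15 (adjusted p = 0.646), and the other was above background on none; whether either reads the virus was not given in the sources used here, so neither checks the labels. All 7 tested genes of a list of 10 B lineage markers were called higher with the Ebf1 virus. Of the untested genes, Cd79a was above background on no array, and Blk and Pax5 on 1 Ebf1 virus array each. The list's scaled signal (signal over that of the 75th percentile, summed over its genes) was 521 to 577 with the Ebf1 virus and 3.68 to 3.76 with the control virus. Without Vpreb1 (means of 397 and 1.35) it was 135 to 151 with the Ebf1 virus and 2.28 to 2.47 with the control virus. Flt3 and Il7r, both found in pre-pro-B cells, were above background on all 6 arrays.

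Of the 41 receptor genes, 25 had a tested probe and 16 had none. In all, 12 genes were lower with the Ebf1 virus and 4 were higher on at least 1 probe, and no gene was called in both directions. By probe, 6 of the 35 tested were higher, beside 11.5% of all tested probes, and 14 were lower, beside 10.2%. Taking each gene by its brightest tested probe, 3 of 25 (12%) were higher, beside 12.6% of all tested genes, and 12 of 25 (48%) were lower, beside 11%. The share called higher therefore lay near that of all genes, and the share called lower above it. The median change of the receptor genes was -0.42 and that of all tested genes -0.06. Since a probe that was bright in only 1 group had to differ to be tested, the 31 receptor probes above background on all 6 arrays were also read alone: 3 were higher, beside 9.08% of the 18481 probes that passed the same filter, and 13 were lower, beside 11.3%. Scaling the arrays to their median moved the median of all probes by -0.31, left 14 receptor probes lower and reduced those called higher to 3. Testing every probe, dim ones included, ended the calls of Il1r1, Il12rb2, both Il1rap probes, both Il11ra1 probes and Il17rc (adjusted p of 0.0644 to 0.162).

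**Figure D1:**
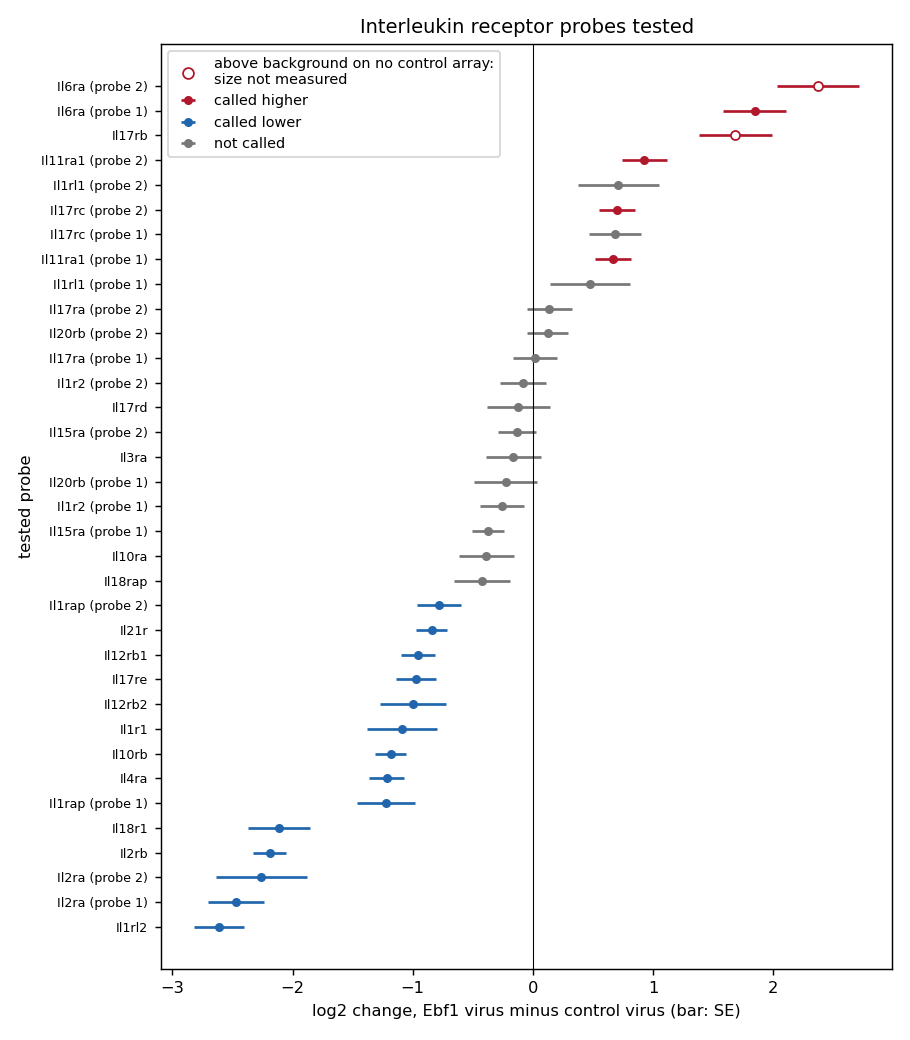
Change of each of the 35 tested interleukin receptor probes, in log2 units (Ebf1 virus minus control virus), with its standard error as a bar; red probes were called higher, blue probes lower and grey probes were not called. The 14 blue probes lie between -2.61 and -0.78, and the 4 filled red probes, which exclude Il17rb and Il6ra probe 2, between 0.67 and 1.84; open symbols mark those 2 probes, above background on no control virus array, whose fitted values are not a measured size.

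Receptor chains that pair with the common gamma chain made the group with the lowest median: 4 of the 5 tested were lower, 0 were higher and the median change was -1.22. Il2rb encodes the beta chain that the receptors for interleukins 2 and 15 share and that carries their signal. Its probe (mm9 chr15:78311109-78311168, minus strand) read 1.89, 1.78 and 1.72 on the Ebf1 virus arrays, against 4.06, 3.90 and 4.00 on the control virus arrays. The groups lay far apart and each varied little, and the change was -2.19 ± 0.14 (SE, adjusted p = 3.55e-05), a 4.56-fold lower signal.

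Il2ra encodes CD25, the alpha chain that gives the interleukin 2 receptor its high affinity. Its brightest probe read -3.47, -2.79 and -2.63 with the Ebf1 virus, against -0.62, -0.55 and -0.33 with the control virus. All 3 Ebf1 virus arrays were below all 3 control virus arrays, and the change was -2.47 ± 0.23 (SE, adjusted p = 2.83e-04). A second probe of Il2ra gave -2.26 ± 0.38 (SE, adjusted p = 0.0051) and was above background on 2 of the 3 Ebf1 virus arrays. The other two Il2ra probes were not tested; of these, 1 was above background on 2 control virus arrays and the other on no array.

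Il4ra encodes the chain that binds interleukin 4 and, with another partner, interleukin 13. It read 1.97, 2.13 and 1.95 with the Ebf1 virus, against 3.11, 3.18 and 3.403 with the control virus, a change of -1.22 ± 0.15 (SE, adjusted p = 0.0010). Il21r, the interleukin 21 receptor, read -0.42, -0.44 and -0.52 with the Ebf1 virus, against 0.37, 0.31 and 0.46 with the control virus, a change of -0.84 ± 0.13 (SE, adjusted p = 0.0035; 0.124 with the slide as a fixed block). Neither gene's groups overlapped. The probes of Il4ra and Il21r lie 55.0 kb apart on chromosome 7, and both genes were lower.

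Il15ra, the chain that presents interleukin 15 to the beta chain, was tested on 2 probes and called on neither. The brighter averaged -1.97 with the Ebf1 virus and -1.59 with the control virus (change -0.37, adjusted p = 0.085), and the dimmer differed by -0.13 (adjusted p = 0.592). Its probe lies 31.3 kb from the brightest Il2ra probe on chromosome 2. Il9r, for interleukin 9, was above background on 1 Ebf1 virus array only and was not tested. The shared partner Il2rg itself differed by 0.04 (adjusted p = 0.894), while Il7r, the interleukin 7 receptor alpha chain, was lower, with a change of -1.69 ± 0.15 (SE, adjusted p = 1.96e-04). In bulk samples such as these, fewer cells that carry a transcript and less transcript per cell cannot be told apart.

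**Figure D2:**
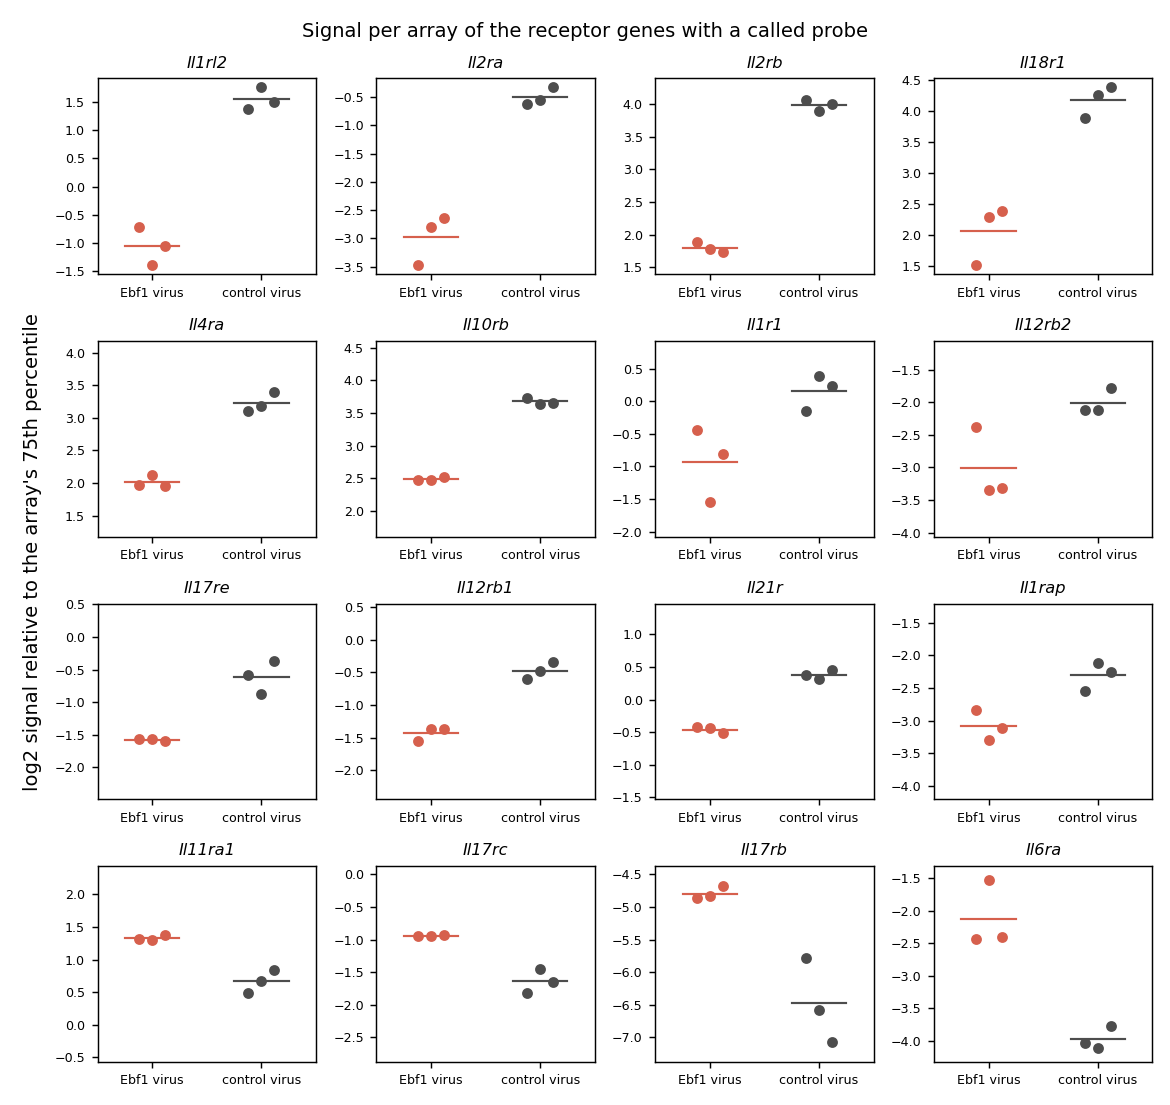
Log2 signal relative to the array's 75th percentile on each of the 6 arrays for the 16 interleukin receptor genes with a called probe, each by the brightest of its called probes, with Ebf1 virus arrays left and control virus arrays right in every panel and the group mean as a line. Each panel has its own scale of 3 or more log2 units. In every panel the 3 arrays of one group lie clear of the 3 of the other. The genes are shown because they were called, which favours such separation, so it is no support beyond the calls.

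Among the receptors of the IL-1 and IL-18 family, 4 of the 7 tested genes were lower and 0 higher, with a median change of -0.78. Il18r1 encodes the chain that binds interleukin 18, a cytokine that acts on T cells, natural killer cells and innate lymphoid cells. It read 1.51, 2.30 and 2.39 with the Ebf1 virus, against 3.89, 4.25 and 4.39 with the control virus. The groups were separate, although Ebf1 virus replicate 1 lay below the other two, and the change was -2.11 ± 0.26 (SE, adjusted p = 0.0011). Its partner chain Il18rap, which completes the signalling receptor, was not called: it averaged -0.66 with the Ebf1 virus and -0.24 with the control virus (change -0.42, adjusted p = 0.229). Another Il18rap probe was above background on no array. Il18, the ligand, was higher by 1.95 ± 0.14 (SE, adjusted p = 6.08e-05).

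Il1rl2 encodes the receptor for interleukin 36. One probe, drawn from a heart cDNA clone, read -0.71, -1.40 and -1.06 with the Ebf1 virus, against 1.38, 1.77 and 1.51 with the control virus. Its change of -2.61 ± 0.21 (SE, adjusted p = 1.16e-04) was the most negative of the tested receptor probes. The probe from the RefSeq transcript of the same gene was above background on no array, so the 2 probes of Il1rl2 disagree on whether a signal was present at all.

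Il1r1, the signalling receptor for interleukin 1, read -0.45, -1.54 and -0.81 with the Ebf1 virus, against -0.15, 0.39 and 0.23 with the control virus. The nearest arrays of the 2 groups were close together, and the change was -1.09 ± 0.29 (SE, adjusted p = 0.034). The call was lost without control virus replicate 2 or 3 or Ebf1 virus replicate 2 or 3 (adjusted p of 0.067 to 0.112). Il1rap encodes the accessory chain that the receptors for interleukins 1, 33 and 36 share. The probe for its transcript variant 2 read -3.77, -4.63 and -3.87 with the Ebf1 virus, against -2.98, -2.85 and -2.76 with the control virus, a change of -1.22 ± 0.24 (SE, adjusted p = 0.010). A probe of a brain cDNA clone, which is the brighter, read -2.84, -3.302 and -3.11 with the Ebf1 virus, against -2.54, -2.11 and -2.25 with the control virus, a change of -0.78 ± 0.18 (SE, adjusted p = 0.022). The other Il1rap probes, among them the one for transcript variant 1, were above background on no array. Neither Il1rap call held with normexp background correction (adjusted p = 0.079 and 0.248), and the second was lost without control virus replicate 2 or 3 or Ebf1 virus replicate 2 or 3 (0.0599 to 0.088). The normexp setting adds an offset of 50 to every signal, which shrinks the changes of dim probes such as these.

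The decoy receptor Il1r2, which binds interleukin 1 without signalling, was called on neither of its 2 tested probes: the brighter averaged 1.27 with the Ebf1 virus and 1.53 with the control virus (change -0.26, adjusted p = 0.347), and the other differed by -0.08 (adjusted p = 0.781). Il1rl1, also known as ST2 and the receptor for interleukin 33, has a soluble and a membrane-bound form. The probe for transcript variant 2 averaged -2.29 with the Ebf1 virus and -2.76 with the control virus (change 0.48, adjusted p = 0.341), and the probe for variant 1 averaged -3.06 with the Ebf1 virus and -3.76 with the control virus (change 0.71, adjusted p = 0.175). Without control virus replicate 2 the second probe was called, with a change of 1.11 (adjusted p = 0.0185). Il1rn, Il1rapl1 and Il1rapl2 had no tested probe, and only Il1rapl2 was above background on any array, on 1 with the Ebf1 virus.

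Of these genes, 6 lie side by side on chromosome 1. In order along the chromosome, the used probes are 192.6 kb apart between Il1r2 and Il1r1, 51.5 kb between Il1r1 and Il1rl2, 80.5 kb between Il1rl2 and Il1rl1, 52.7 kb between Il1rl1 and Il18r1 and 48.1 kb between Il18r1 and Il18rap. Il1r1, Il1rl2 and Il18r1 were lower, and Il1rl1, which lies between Il1rl2 and Il18r1, was not called and had a positive change.

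**Figure D3:**
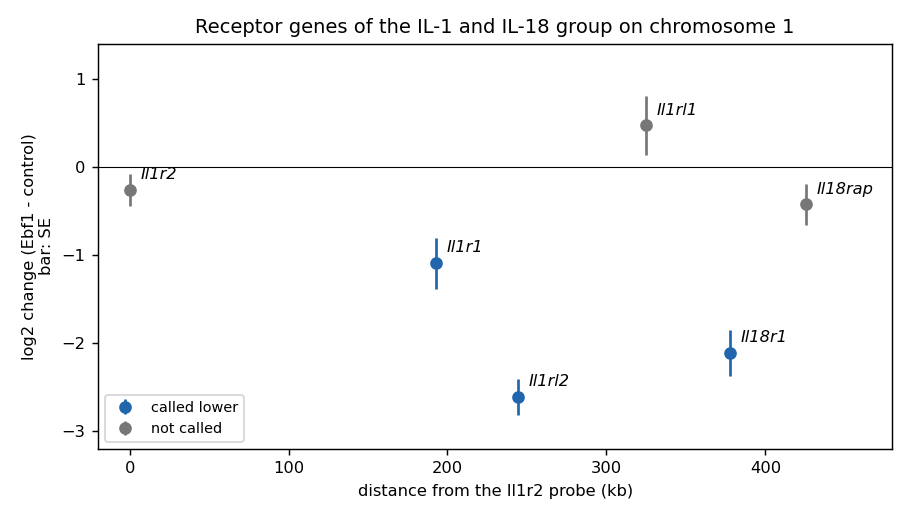
Log2 change (Ebf1 virus minus control virus, vertical axis, bar: SE) of the 6 receptor genes of the IL-1 and IL-18 family on chromosome 1, each by its brightest tested probe, against the distance in kb from the Il1r2 probe. Blue genes were called lower, at -1.09, -2.61 and -2.11, and grey genes were not called.

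Receptor chains of the gp130 and interleukin 12 family moved both ways: of 4 tested genes, 2 were higher and 2 lower. Il6ra, the chain that binds interleukin 6 and hands it to gp130, was higher on both of its probes. Its 2 probes read separate stretches of the transcript on chromosome 3, at mm9 chr3:89680743-89680802 and chr3:89690491-89690550, both on the minus strand, and are shown because both were called. The sequences are those of the array files, with no letters in capitals.
Il6ra probe 1: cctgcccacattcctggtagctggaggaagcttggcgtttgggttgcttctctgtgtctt
Il6ra probe 2: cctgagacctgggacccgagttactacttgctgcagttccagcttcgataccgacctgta

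Probe 1 of Il6ra read -2.44, -1.53 and -2.41 with the Ebf1 virus, against -4.03, -4.11 and -3.76 with the control virus, where it was above background on 2 of 3 arrays. The change was 1.84 ± 0.26 (SE, adjusted p = 0.0023; 0.062 with the slide as a fixed block). Probe 2 read -3.32, -2.45 and -3.07 with the Ebf1 virus and was above background on no control virus array, where its measured values were -4.93, -6.02 and -5.00. Its signal was therefore at least 3.38-fold higher with the Ebf1 virus, counted against the lowest signal that the software called above background on each control virus array (adjusted p = 0.0024 in the fit). Both probes of Il6ra separated the groups completely. With normexp background correction probe 2 gave a change of 0.54 that was not called (adjusted p = 0.065). The normexp offset of 50 is large beside the processed signals of probe 2 (36.4 to 63.5 with the Ebf1 virus), so it shrinks this change.

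Il11ra1, which binds interleukin 11 and also signals through gp130, was higher on both of its probes. The brighter read 1.32, 1.30 and 1.38 with the Ebf1 virus, against 0.49, 0.68 and 0.83 with the control virus, a change of 0.67 ± 0.15 (SE, adjusted p = 0.017). The dimmer read -0.02, -0.40 and -0.47 with the Ebf1 virus, against -1.48, -1.13 and -1.05 with the control virus, a change of 0.93 ± 0.19 (SE, adjusted p = 0.012). The arrays did not overlap on either probe, but with median scaling the changes were 0.36 and 0.62 and neither was called (adjusted p = 0.462 and 0.188). The brighter probe was also not called without control virus replicate 2 (adjusted p = 0.066) or Ebf1 virus replicate 3 (0.0515).

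Il12rb1, the chain that the receptors for interleukins 12 and 23 share, read -1.55, -1.37 and -1.37 with the Ebf1 virus, against -0.61, -0.48 and -0.34 with the control virus. It was lower, with a change of -0.96 ± 0.14 (SE, adjusted p = 0.0031; 0.057 with the slide as a fixed block), with no overlap between groups. Il12rb2, the second chain of the interleukin 12 receptor, read -2.37, -3.34 and -3.31 with the Ebf1 virus, against -2.12, -2.12 and -1.78 with the control virus. Ebf1 virus replicate 1 lay near the control virus arrays, and the change was -0.999 ± 0.28 (SE, adjusted p = 0.038). Leaving out any single array other than Ebf1 virus replicate 1 ended the Il12rb2 call (adjusted p of 0.0788 to 0.122), as did normexp background correction (0.068). Il23r, for interleukin 23, was above background on 1 Ebf1 virus array, and Il27ra and Il31ra on no array. The shared chain Il6st (gp130) differed by 0.47 (adjusted p = 0.055).

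The IL-17 receptor family was measured for all 5 of its genes on the array, with 1 higher and 1 lower by the brightest probe. The median change of the 4 genes measured in both groups, without Il17rb, was -0.05. Il17re, the chain for interleukin 17C, read -1.57, -1.57 and -1.60 with the Ebf1 virus, against -0.58, -0.87 and -0.37 with the control virus, a change of -0.97 ± 0.16 (SE, adjusted p = 0.0051; 0.146 with the slide as a fixed block). Il17rc, which pairs with Il17ra to bind interleukins 17A and 17F, moved the other way. One probe read -0.95, -0.95 and -0.92 with the Ebf1 virus, against -1.82, -1.45 and -1.64 with the control virus, a change of 0.70 ± 0.15 (SE, adjusted p = 0.014). The brighter Il17rc probe gave a similar change, 0.68 ± 0.22, and just missed the threshold (adjusted p = 0.061). With median scaling the called probe changed by 0.39 and was not called (adjusted p = 0.417), with normexp its adjusted p was 0.065, and without control virus replicate 3 its adjusted p was 0.054. The Il17re and Il17rc probes lie 12.9 kb apart on chromosome 6. Another Il17re probe and another Il17rc probe were above background on no array.

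Il17rb, the receptor for interleukins 17B and 25, was called higher on 1 dim probe, made for a short isoform. It read -4.86, -4.84 and -4.68 with the Ebf1 virus and was above background on no control virus array, where its measured values were -5.78, -6.59 and -7.06. The Ebf1 virus values of Il17rb lay so close to the lowest signal called above background that no fold can be given (adjusted p = 0.0070 in the fit). The call was lost with normexp background correction (change 0.10, adjusted p = 0.767) and with quantile normalisation (change 1.503, adjusted p = 0.055), and the probe for the RefSeq transcript was above background on no array. The normexp offset of 50 exceeds the processed signals of the called probe (12.1 to 12.5 with the Ebf1 virus), so that setting could not decide this call. Il17ra, the chain common to the family, averaged 1.07 with the Ebf1 virus and 1.05 with the control virus (change 0.02, adjusted p = 0.953) and its second probe differed by 0.13 (adjusted p = 0.641). Il17rd averaged -1.03 with the Ebf1 virus and -0.90 with the control virus on its only tested probe (change -0.12, adjusted p = 0.769). Each of the other Il17rd probes was above background on at most 1 Ebf1 virus array and on no control virus array.

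Of the class II receptors, which bind interleukin 10 and its relatives, 3 of 7 genes were tested and 1 was lower. Il10rb, the chain shared by the receptors for interleukins 10 and 22 and for the lambda interferons, read 2.48, 2.48 and 2.53 with the Ebf1 virus, against 3.73, 3.64 and 3.66 with the control virus. The arrays within each group of Il10rb were nearly level, and the change was -1.18 ± 0.13 (SE, adjusted p = 5.59e-04). A second Il10rb probe, from a clone that the array annotation calls unclassifiable, was above background on no array. The ligand-binding chain Il10ra averaged 2.42 with the Ebf1 virus and 2.81 with the control virus (change -0.39, adjusted p = 0.259). Il20rb averaged -1.74 with the Ebf1 virus and -1.51 with the control virus on its brighter probe (change -0.23, adjusted p = 0.572), and differed by 0.12 on the other (adjusted p = 0.635). Il20ra, Il22ra1, Il22ra2 and Il28ra were above background on no array.

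The remaining groups gave little signal. Il3ra, the chain that binds interleukin 3 and pairs with the common beta chain, averaged -0.82 with the Ebf1 virus and -0.66 with the control virus (change -0.16, adjusted p = 0.646), and Il5ra was above background on no array. The common beta chain genes Csf2rb and Csf2rb2 differed by 0.41 and 0.33 (adjusted p = 0.120 and 0.187). Il13ra1 was above background on 2 Ebf1 virus arrays and no control virus array, and Il13ra2 on no array. Of the chemokine receptors, Il8ra was above background on no array, and the 2 probes of Il8rb on 1 Ebf1 virus array each and 1 of them also on 2 control virus arrays.

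RefSeq promoters (GRCm38.p6, 250 bases before to 50 after a gene's start) were matched for 34 of the 41 receptor genes and searched for CCCNNGGG, the middle of the palindrome that Ebf1 is known to bind, which reads the same on both strands. It was found in 7 of the 34 (20.6%), beside 15.4% of 27025 genes and 13.7% of all promoters in the table. Of the genes with a promoter entry it stood in 2 of the 4 called higher, 2 of the 9 called lower, 0 of the 7 tested and not called, and 3 of the 14 not tested. The 4 matches in called genes are shown with 10 bases on either side, the matched letters in capitals, each on the gene's own strand.
Il6ra: tggtgggggtCCCTGGGGgctcaggtgt
Il17rb: ccccgcgagcCCCGAGGGcgacaaggcg
Il12rb2: aagggacttcCCCGAGGGccgggcacct
Il1r1: gctgcacgccCCCGCGGGcggctcagag

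The match begins at base -203 relative to the start in Il6ra (promoter chr3:89913147-89913446, minus strand), at -71 in Il17rb (chr14:30008847-30009146, minus strand), at 8 in Il12rb2 (chr6:67376139-67376438, minus strand) and at 22 in Il1r1 (chr1:40266336-40266635, plus strand). Of these genes, 2 were higher and 2 lower. Il1r1 had 2 promoter entries, and the match stood in 1 of them. A gene was counted when any of its entries held a match. A match of these letters is a description of the sequence and not a binding site.

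The slides allow 1 direct comparison, because slide 1 held Ebf1 virus replicate 1 and control virus replicate 2, while the other two slides held arrays of 1 group each. These 2 arrays are among the 6 of the main fit, and the groups of every called probe did not overlap, so the sign of a called probe on slide 1 was fixed and only its size is read here. The differences were -2.01 for Il2rb, -2.93 for the brightest Il2ra probe, -2.75 for Il18r1, -2.48 for Il1rl2, -1.22 for Il4ra, -1.16 for Il10rb, -1.07 for Il12rb1, -0.73 for Il21r, -0.70 for Il17re and -0.84 for Il1r1. They were 0.64 and 1.11 for the 2 Il11ra1 probes and 0.51 for the called Il17rc probe. Il12rb2 differed by -0.25 on the shared slide, against -0.999 over all arrays. The probes of Il6ra and Il17rb and the second Il2ra probe were not above background on both arrays of slide 1, so no difference is given for them. A fit with slide as a fixed block, which rests on that 1 pair of arrays for the contrast, called 7 receptor probes lower and 1 higher. It ended 12 calls (adjusted p of 0.057 to 0.603): those of Il12rb1, Il12rb2, Il17re, Il21r, Il1r1, both Il1rap probes, both Il11ra1 probes, Il17rb, Il17rc and Il6ra probe 1.

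**Figure D4:**
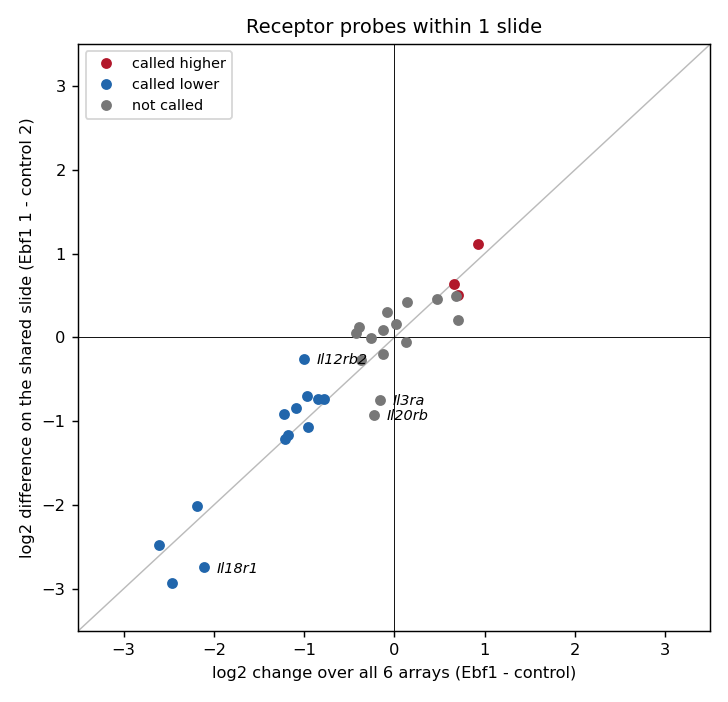
Log2 difference between Ebf1 virus replicate 1 and control virus replicate 2, the 2 arrays on the shared slide (vertical axis), against the log2 change over all 6 arrays (horizontal axis) for the 31 tested receptor probes above background on both of those arrays; the grey diagonal marks equal values. Il12rb2 lies far above the diagonal, at -0.25 on the vertical axis and -0.999 on the horizontal one.

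The genes that work with these receptors were read from lists of their own, beside all tested genes, of which 12.6% were higher and 11% lower. Of 15 partner chains, all tested, 2 were higher, among them Ifngr2 by 0.88, and 2 were lower (Il7r at -1.69 and Ifngr1, a chain of the interferon gamma receptor, at -0.98), with a median change of 0.07. Of 38 ligand genes on the array, 10 were tested and 23 were above background on no array, among them Il2, Il4, Il6, Il10 and Il21. Besides Il18, the ligand genes Il34 (2.54, above background on 1 control virus array) and Clcf1 (0.95) were higher. Il28b was above background on the 3 Ebf1 virus arrays alone and at least 10.2-fold higher there. Il12a (-1.41), Il17d (-0.91) and Csf2 (-2.84, above background on 1 Ebf1 virus array) were lower.

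Of 24 tested genes of the Jak, Stat and Socs list, which carry and damp the signal of most of these receptors, 3 were higher and 2 lower, with a median change of 0.04. These counts lay near the shares of all tested genes (12.6% higher and 11% lower). Stat5a, a factor downstream of the interleukin 2 and 7 receptors, was higher by 1.66 ± 0.26 (SE, adjusted p = 0.0035). Its relative Stat5b, the brighter of these genes, was not called (change 0.64, adjusted p = 0.076). The feedback inhibitors Socs3 and Cish were higher by 1.00 and 0.75. The phosphatase gene Ptpn11 was lower (change -0.72), as was Socs2 (change -0.50, adjusted p = 0.048). Of 14 tested adaptors of the IL-1 and IL-17 receptors, Traf3ip2, the IL-17 receptor adaptor also called Act1, was higher by 1.30 ± 0.16 (SE, adjusted p = 0.0011) and Traf3 by 0.52. The kinase gene Irak1 was lower (change -0.81), and the median change was -0.09. The counts of the adaptors and of the partner chains also lay near the shares of all tested genes.

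**Figure D5:**
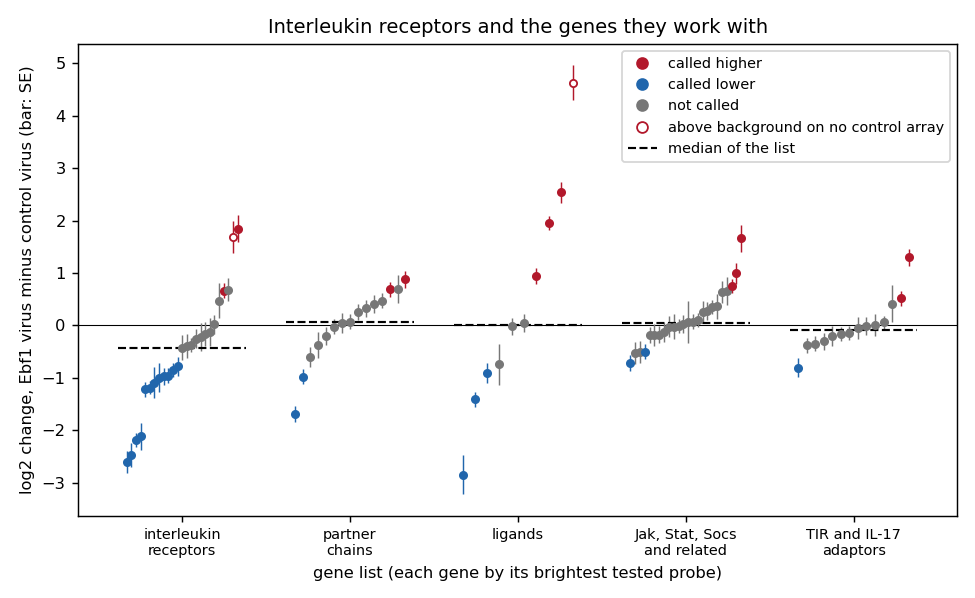
Log2 change (Ebf1 virus minus control virus, bar: SE) of every tested gene of 5 lists, each gene by its brightest tested probe: the interleukin receptors, their partner chains, the ligands, the Jak, Stat and Socs list and the adaptors; red genes were called higher, blue lower, grey not called, and the dashed line is the list's median; open symbols mark genes above background on no control virus array (Il17rb and Il28b), whose fitted values are not a measured size. The receptor median lies at -0.42, and those of the other lists between -0.09 and 0.07.

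Several receptors that were lower are also known from T cells, natural killer cells and innate lymphoid cells, so markers of those cells were read beside them. Over all tested genes, 12.6% were higher and 11% lower. Of 6 tested T cell markers 3 were lower (Cd3d, Cd3g and Trat1) and 0 higher. The summed scaled signal of the list was 3.56 to 4.27 with the Ebf1 virus and 4.75 to 5.42 with the control virus. Without Trat1 the sums overlapped, at 3.34 to 3.95 with the Ebf1 virus and 3.71 to 4.33 with the control virus. Cd8a and Themis were above background on no array. Of 4 tested natural killer markers 2 were higher (Gzma and Tbx21) and 1 lower (Klrd1), with sums of 43.0 to 50.8 with the Ebf1 virus and 3.10 to 4.30 with the control virus. Gzma carried that difference (means of 43.9 and 1.07), and without it the sums were 1.56 to 2.42 with the Ebf1 virus and 1.99 to 3.11 with the control virus. Of this list, Klrb1c, Klrk1 and Gzmb were above background on no array. Of 5 tested innate lymphoid markers 1 was higher and 2 lower (Gata3 and Icos), with sums of 7.21 to 9.71 against 12.9 to 15.4, and Klrg1, Areg and Il22 were above background on no array.

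Of 5 tested myeloid markers 1 was higher and 3 lower, with sums of 8.06 to 9.73 with the Ebf1 virus and 14.0 to 21.2 with the control virus, and Csf3r was above background on no array. Of 8 tested dendritic cell markers 1 was higher and 4 lower, with sums of 225 to 245 with the Ebf1 virus and 97.3 to 119 with the control virus; the higher marker, Ly6d, carried that difference (means of 179 and 29.5), and without it the sums were 53.3 to 59.7 with the Ebf1 virus and 74.3 to 85.6 with the control virus. Of this list, Cd209a and Clec9a were above background on no array. Of 10 mast cell and basophil markers, 7 were above background on no array, among them Fcer1a and Mcpt8. Of the 2 tested, Cpa3 was lower (change -1.90, adjusted p = 0.0076). Hdc, above background on no control virus array, was at least 1.24-fold higher (adjusted p = 0.0049). The sums were 0.168 to 0.252 with the Ebf1 virus and 0.249 to 0.403 with the control virus. Without Cpa3 the sums were 0.129 to 0.1835 with the Ebf1 virus and 0.105 to 0.126 with the control virus. Besides Hdc, they then hold only the 7 genes above background on no array and Cma1, above it on 1 Ebf1 virus array. They are therefore largely background signal, and their order is not read. Of 9 tested progenitor markers 2 were higher and 4 lower, Kit and Cd34 among those lower, with sums of 84.4 to 108 against 168 to 259. Of 7 tested stromal markers, which the OP9 feeder cells would carry, Fn1 was higher and none lower, with sums of 25.6 to 33.1 against 17.7 to 24.2, and Lum was above background on no array. The part of these other cells in the receptor changes was not tested.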

How the data were processed

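Cy3-labelled RNA of 6 samples was read on Agilent arrays of 1 colour each. The deposited values are linear intensities of single spots, which the authors, per the file headers, extracted with Agilent Feature Extraction 10.5.1.1, which subtracts background within an array, and probe positions are those of mm9. A deposited value table equalled the processed signal at all 45018 features within 0.1 percent.

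The deposited processed signals were put on a log2 scale and set against the 75th percentile of the 43379 non-control features of their array; flagged outlier spots (65 to 116 an array) were left out and spots of a probe averaged. The filter on background left 20454 of 41174 probes. Where a probe had several spots it counted as above background when no more of them were below it than above. This rule was settled after the files were seen and after 4 versions had been compared: 20447 to 20459 probes were tested, and each version gave the same numbers of receptor probes higher and lower, since no receptor probe had several spots. The lowest signal above background, against which the bounds are set, was taken over probes with all spots above it; with any spot, the bounds were 4.58-fold for Il6ra and 22.7-fold for Il28b. Groups were compared with limma 3.58.1 (lmFit and eBayes, two-sided, Benjamini-Hochberg over all tested probes) in R 4.3.3, which was tested on simulated data. That simulation recovered 0% of log2 changes of 0.5, 32% of 1, 82% of 2 and 100% of 4, with 50 probes each. It gave 5 false calls among 20447 probes. Its changed probes were far fewer than the 2350 higher and 2085 lower probes of the main fit, and adjusted p depends on that number. The recovered shares are therefore not those of the main fit, which called Socs2 at a change of -0.50. A receptor that was not called is still not shown to be unchanged. Fitted to group alone, limma uses 3 arrays a group, and that number limits the precision. Symbols were updated through RefSeq accessions. Every receptor gene is named; of each pathway list, every called gene but 1, which is not reported here. The members and lists were chosen with earlier results of these data known, and the 2 chemokine receptors were made a group of their own later. Same-numbered samples deviated from their group means with correlations of -0.169, -0.247 and 0.0953, so the numbers were not taken to pair samples. Sums of marker lists without 1 gene were added after seeing the data. Alternatives were normexp background correction with an offset of 50, scaling, the filter, replicate and slide blocks, the variance model, the deposited table, the probe rule and leaving out each array.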

Additional observations from a re-analysis of the deposited data

How the results depend on the processing

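The main fit called 6 receptor probes higher and 14 lower, and 2350 and 2085 of all tested probes. Receptor probes called higher numbered 3 with median scaling, with no filter on dim probes or with a filter that asks for signal on all 6 arrays, and 1 with slide as a fixed block, which left 7 lower; normexp gave 4 higher and 11 lower. Leaving out 1 array gave 5 to 7 higher and 11 to 14 lower. Over all probes, median scaling gave 1256 higher and 2642 lower (32.2% of calls higher against 53% in the main fit; for receptors 17.6% against 30%), no filter 1341 and 655, a fixed slide block 1269 and 898, the replicate block 1863 and 1233, and leaving out 1 array 1594 to 2126 higher and 1016 to 1687 lower. Under the replicate block, where the numbers share only a label, 5 receptor probes were higher and 11 lower. The calls of Il2rb, Il2ra, Il18r1, Il1rl2, Il4ra and Il10rb held under every alternative that tested them (the dimmer Il2ra probe was not tested with signal asked for on all 6 arrays). The random slide block and the deposited table changed no receptor call. Changes that reversed belonged to receptors that were not called. With the fixed slide block these were Il10ra (0.12), Il15ra (0.084), Il18rap (0.052), Il1r2 (0.30) and Il20rb (-0.059); with median scaling, Il17ra (-0.29 and -0.17) and Il20rb (-0.19). Leaving out 1 array gave -0.112 to 0.12 and -0.017 to 0.239 for the 2 Il17ra probes, -0.362 to 0.161 for Il17rd, -0.213 to 0.087 for the dimmer Il1r2 probe, -0.421 to 0.019 for the brighter Il20rb probe and -0.359 to 0.087 for Il3ra. The cause was not tested. Signals near background limit Il17rb, Il6ra, Il1rap and Il12rb2. The 3 arrays a group limit the smaller changes.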
